A study of Mus musculus with 3 samples.

Results

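The Runx1 locus was examined in the chromatin of mouse precursor B-cell leukaemia cells, as a window of 750 kb on chromosome 16 (mm9, 92580000 to 93330000) that holds the gene and the sequence upstream of it. Its members are all deposited peaks that overlap the window, 58 of 29468 peaks of histone H3 acetylated at lysine 27 (H3K27ac) and 5 of 18142 peaks of histone H3 trimethylated at lysine 4 (H3K4me3). Runx1 lies on the minus strand, so upstream means toward higher coordinates. Its approximate mm9 position, 92.60 to 92.83 Mb, is called the gene interval here, and a peak was counted as upstream when its centre lay beyond 92.83 Mb. The window was selected on its H3K27ac peaks, their number and summed length in these same data, so the values below describe the locus and are no test of it.

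The cells were a cultured leukaemia driven by Bcr-Abl, a fusion kinase found in human leukaemias, and they received no treatment. The series has 3 samples of these cells, with 1 immunoprecipitation of each mark and 1 with control immunoglobulin (IgG), which has no peak list here. No source used here states other alleles of the cells or how the line was derived. With 1 library per mark no value has a replicate error, and sequencing depth is unknown. The labelled cell type was not checked against marker genes, because no mm9 gene positions were used beyond that of Runx1.

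Runx1 encodes the DNA-binding subunit of core-binding factor, a transcription factor that works as a pair with the protein Cbfb. It is required for blood stem cells to form in the embryo and for B-cell development, and the gene is a frequent target of translocation and mutation in leukaemia. Transcription starts at a distal promoter at the 5′ end of the gene or at a proximal promoter inside it, and enhancers within the gene are known to act in blood cells. H3K4me3 marks the start sites of active genes, while H3K27ac marks active promoters and active enhancers.

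RefSeq lists 4 transcripts of Runx1 and gives a start region for each of the 2 promoters. They are shown because the strongest H3K4me3 of the locus falls into 2 peaks within the gene interval, and because the promoters differ in CpG dinucleotides, which are frequent in many promoters that carry H3K4me3. Each line gives the 250 bases before the start, 5′ to 3′ on the minus strand, with CpG dinucleotides in capitals. The sequences follow GRCm38.p6, at chr16:92826075-92826324 for the distal and chr16:92697330-92697579 for the proximal promoter. These positions belong to another build than the peaks and cannot be laid over them.
Runx1 distal promoter: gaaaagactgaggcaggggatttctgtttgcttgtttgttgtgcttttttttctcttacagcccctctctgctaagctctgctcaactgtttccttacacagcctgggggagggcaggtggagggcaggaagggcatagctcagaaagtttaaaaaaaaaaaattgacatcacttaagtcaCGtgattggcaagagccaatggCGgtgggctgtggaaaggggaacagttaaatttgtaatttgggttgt
Runx1 proximal promoter: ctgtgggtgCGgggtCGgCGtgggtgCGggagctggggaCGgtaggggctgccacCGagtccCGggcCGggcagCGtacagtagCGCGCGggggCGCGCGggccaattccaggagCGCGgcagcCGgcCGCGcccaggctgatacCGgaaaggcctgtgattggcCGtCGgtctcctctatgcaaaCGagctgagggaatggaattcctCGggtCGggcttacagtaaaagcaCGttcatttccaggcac

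The distal promoter holds 2 CpG dinucleotides and 45.6% G and C, and 71.0% of 32841 RefSeq promoter windows of the same length hold more CpG. The proximal promoter holds 27 CpG dinucleotides and 67.6% G and C, and 7.61% of the windows hold more. The median window holds 6. The RUNX motif TGTGGT, searched on both strands, is in neither sequence printed above, while 14.0% of the windows hold it. It occurs 2 times in the 50 bases that follow the distal start, and 16.8% of all windows of 300 bases that include those downstream bases hold at least 1 copy. CCAAT, also searched on both strands, occurs 2 times in each of the 250-base sequences, and 33.9% of the windows hold it. GGAAG, 1 form of the ETS-type motif, occurs 1 time in the distal and not in the proximal sequence, and 64.1% of the windows hold it. Other forms with the core GGAA were not counted, and the proximal sequence also holds GGAA. The E-box form CAGCTG is in neither sequence, and 13.0% hold it. Other E-box forms were not counted, and the distal sequence holds CAGGTG and CACGTG. These matches describe letters only and say nothing of binding.

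Within the gene interval both H3K4me3 peaks scored 3100, the value at which most high scores are tied and which is called the ceiling here. Of all H3K4me3 peaks, 50.3% reach it, as do 24.1% of all H3K27ac peaks. Scores were given by the authors and serve here only to rank or filter peaks within 1 list. The first peak, at the upstream end of the interval, measured 5101 bp (92822081 to 92827181), and 2.12% of H3K4me3 peaks were wider. The second, inside the interval, measured 3358 bp (92695944 to 92699301), and 11.3% were wider. Their centres lay 127.0 kb apart. The wider peak is thus the one at the 5′ end of the gene.

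The marks fitted each other differently at these 2 sites. At the upstream end an H3K27ac peak of 7876 bp (92821160 to 92829035), also at the ceiling, held the whole H3K4me3 peak. It reached 921 bp further into the gene and 1854 bp further upstream, and 1.93% of H3K27ac peaks were wider. At the inner site the H3K27ac peak measured 2857 bp (92696509 to 92699365) and scored 2880.53, below the ceiling. It was narrower than its H3K4me3 partner and shared 2793 bp with it, equal to 97.8% of the H3K27ac peak and 83.2% of the H3K4me3 peak. Acetylation therefore extended past H3K4me3 on both sides at the 5′ end of Runx1, and at the inner site it started 565 bp inside H3K4me3 and ended 64 bp beyond it.

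The other 7 H3K27ac peaks of the gene interval carried no H3K4me3, which 52.3% of all H3K27ac peaks overlap, and lay 6.49 to 73.1 kb from the nearest H3K4me3 peak. The widest measured 6390 bp (92782614 to 92789003) and scored 2801.79. Next to it lay a peak of 3464 bp (92800418 to 92803881) with a score of 1637.88. Their centres were 38.8 and 22.5 kb inside the gene from the centre of the H3K4me3 peak at the upstream end. These are the 2 highest-scoring acetylated sites of the gene interval without H3K4me3, and both lie in the stretch between the H3K4me3 peaks, on the side of the 5′ end.

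The remaining 5 were 492 to 1688 bp wide and scored 51.29 to 498.70. A peak of 1483 bp scoring 346.57 lay between the H3K4me3 peaks, 11.0 kb from the inner one. Peaks of 492 bp (score 51.29) and 874 bp (score 95.60) lay beside the strong sites near the 5′ end. Toward the 3′ end of the gene only 2 peaks were called, of 1688 bp (score 498.70) and 1618 bp (score 233.27). A stretch of 70.9 kb between the H3K4me3 peaks (92711737 to 92782613) and one of 50.4 kb toward the 3′ end (92646141 to 92696508) held no H3K27ac peak. Acetylation of the gene thus leaned to its 5′ end: 38.2% of the last 50 kb of the interval was covered, against 3.24 to 8.68% in the 50 kb bins that had any peak further inside.

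**Figure D1:**
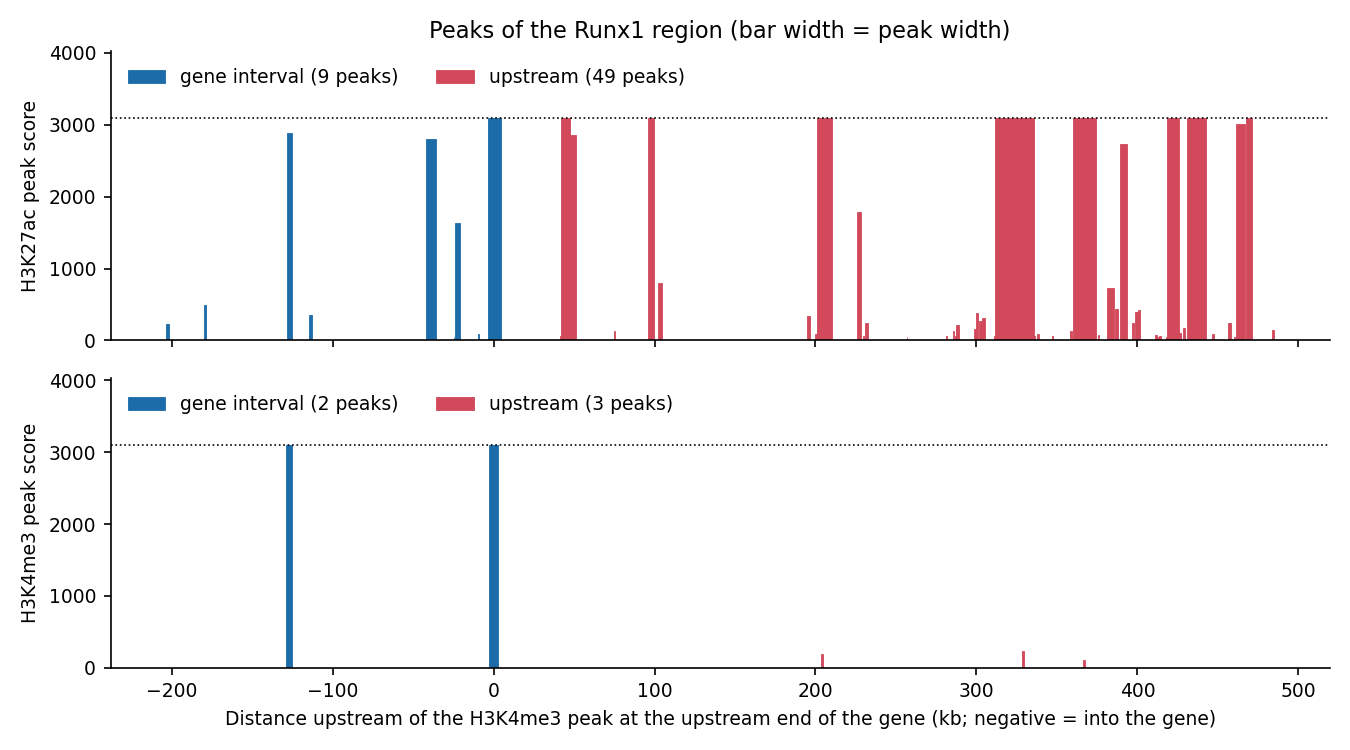
Peak score (vertical axis) against distance in kb from the centre of the H3K4me3 peak at the upstream end of Runx1 (horizontal axis, upstream to the right), for H3K27ac above and H3K4me3 below. Each bar is 1 peak drawn at its true width, blue in the gene interval and red upstream, and the dotted line is the score ceiling of 3100. Both high H3K4me3 bars are blue. Of the 9 H3K27ac bars at the ceiling 8 are red, as are 49 of all 58 H3K27ac bars.

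Upstream of the gene 49 H3K27ac peaks covered 144 kb, and 3 H3K4me3 peaks covered 3.40 kb. Acetylation covered 28.9% of this stretch, compared with 11.6% of the gene interval and 2.68% of chromosome 16 between its first and last H3K27ac peak. Peak density was 9.80 per 100 kb upstream, 3.91 in the gene interval and 1.14 on the chromosome. The window as a whole spans 0.788% of chromosome 16, and it holds 5.34% of the chromosome's H3K27ac peaks and 6.72% of their length. In the RefSeq gene order the next protein-coding gene upstream of Runx1 is Setd4, with 7 long non-coding RNA genes (Gm41499, Gm30474, Gm30530, Gm30588, 1810053B23Rik, 1700029J03Rik and Gm30695) and the microRNA gene Mir802 between them. Downstream the next is Clic6, and the long non-coding RNA gene Gm30281 lies inside Runx1. Which of these genes lie in the window on mm9 was not determined.

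The upstream acetylation began with separate sites and became dense further away. The nearest group, 35.7 to 46.0 kb from the end of the gene interval, had 3 peaks, among them one of 5390 bp at the ceiling (92866669 to 92872058) and one of 3729 bp scoring 2860.89 (92872224 to 92875952). A lone peak of 962 bp (score 131.25) followed. The next group held a peak of 3816 bp at the ceiling (92920289 to 92924104) and one of 2518 bp scoring 802.41. None of these 6 peaks carried H3K4me3. Beyond them lay the longest stretch of the window without H3K27ac, 90.2 kb (92929022 to 93019266).

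On the far side of that stretch lay a peak of 9372 bp at the ceiling (93025304 to 93034675), with flanking peaks of 1875 bp (score 343.54) and 981 bp (score 94.80). It carried an H3K4me3 peak. A group of 3 peaks without H3K4me3 followed, led by one of 2961 bp scoring 1792.27 (93050189 to 93053149), with 747 bp (score 58.57) and 1754 bp (score 245.11) beside it. A lone peak of 547 bp with a score of 52.16 stood before the dense part. These 7 peaks form the approach to it.

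The dense part, 275.7 to 479.7 kb from the end of the gene interval, held 36 peaks with a summed length of 109 kb (93105660 to 93309701). Peaks covered 53.5% of it. The widest was 23.8 kb (93136336 to 93160159), and only 10 of the 29468 H3K27ac peaks of the whole list were wider. Peaks of 14.1 kb (93184810 to 93198902) and 12.2 kb (93255308 to 93267541) came next, with 105 and 161 wider peaks in the list. The other 2 at the ceiling measured 7847 bp (93242862 to 93250708) and 4233 bp (93291791 to 93296023). These 5 peaks made up 57.0% of the acetylated length of the dense part. The 3 widest are also the only peaks of the window over 10 kb, of 18 such peaks on the chromosome.

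Just under the ceiling stood a peak of 5660 bp scoring 3014.33 (93286101 to 93291760) and one of 4302 bp scoring 2736.99 (93213955 to 93218256). A peak of 4525 bp (93205864 to 93210388) scored only 728.29. At the other end of the range 13 of the 36 peaks scored under 100, as do 17.7% of all H3K27ac peaks. The dense part is therefore a mixture of a few very wide peaks and many weak ones that lie between or beside them. Of its 35 gaps, 12 were under 500 bp, a spacing found between 10.5% of neighbours in the list, and the smallest was 21 bp, so some of its peaks are neighbours that nearly touch. There were also 8 gaps over 5 kb, of which 5 were over 9 kb.

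**Figure D2:**
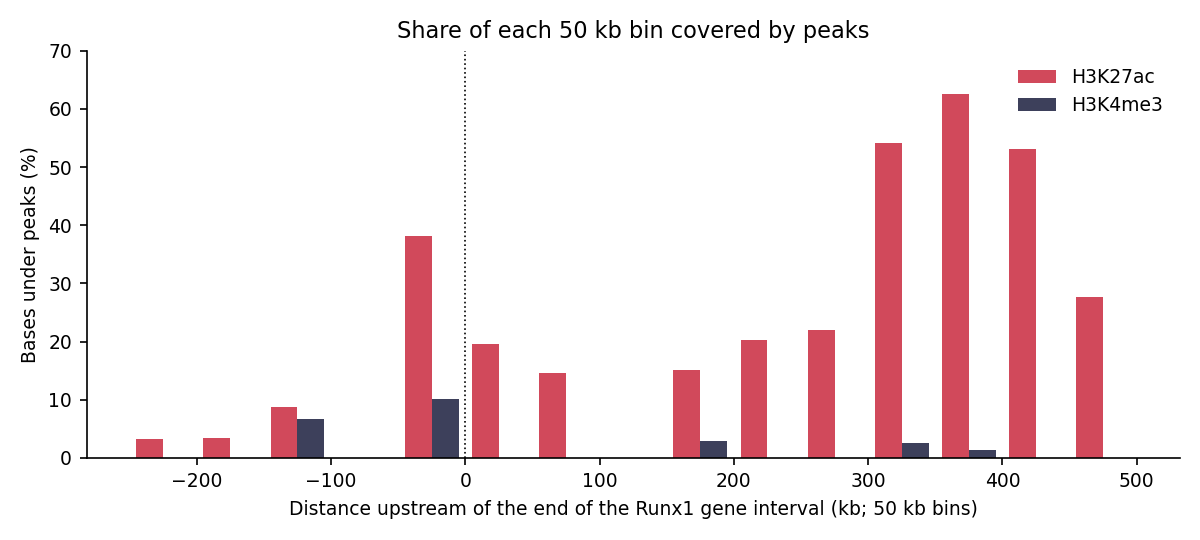
Percentage of bases under peaks (vertical axis) in successive 50 kb bins, by distance in kb from the end of the Runx1 gene interval (horizontal axis, upstream to the right, dotted line at the end of the gene). H3K27ac bars reach 54.1, 62.5 and 53.1% in the 3 bins from 300 to 450 kb upstream. They fall to 0% in the bin from 100 to 150 kb upstream and in the bin from -100 to -50 kb, inside the gene interval. H3K4me3 bars are highest, at 10.2%, in the last bin of the gene interval.

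All 5 H3K4me3 peaks overlapped H3K27ac, a property of 86.1% of H3K4me3 peaks in the list. The 3 upstream peaks were weak and narrow. They measured 1463 bp with a score of 192.13 (93027879 to 93029341), 1268 bp with a score of 229.96 (93152818 to 93154085) and 665 bp with a score of 109.00 (93191139 to 93191803). Between 75.9 and 86.6% of the H3K4me3 list scored higher. Each lay wholly inside an H3K27ac peak at the ceiling, and these were the 9372 bp, 23.8 kb and 14.1 kb peaks. Of the 9025 H3K4me3 peaks below the ceiling, 22.0% overlap an H3K27ac peak at or above it.

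The called widths of the marks thus stood in very different proportions upstream and in the gene. At the 3 upstream sites the H3K27ac peak was 6.41, 18.79 and 21.19 times as wide as the H3K4me3 peak in it. At the 5′ end of the gene the ratio was 1.54 and at the inner site 0.85. How usual such ratios are in the lists was not determined, and called widths depend on depth, which is unknown. The 1268 bp peak lay 16.5 kb from the gene-side edge and 6.07 kb from the far edge of the 23.8 kb peak, so it sat away from both borders. The other 2 sat 2.58 and 6.33 kb from the gene-side edges and 5.33 and 7.10 kb from the far edges. H3K4me3 covered 2.35% of the acetylated length upstream and 29.5% in the gene interval, compared with 45.7% over the whole list.

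Most H3K27ac peaks of the window lay without H3K4me3. Only 5 of its 58 H3K27ac peaks overlapped H3K4me3 (8.62%, exact 95% binomial interval 2.86 to 19.0%), against 52.3% of the list and 45.0% of the peaks of chromosome 16. These intervals take each peak as independent of its neighbours and include no error beyond counting. The other 53 lay at a median of 38.5 kb and at most 117 kb from the nearest H3K4me3 peak, whereas the median for such peaks in the whole list was 17.1 kb. More than 10 kb from H3K4me3 lay 46 of the 58 peaks (79.3%, interval 66.6 to 88.8%), against 29.9% of the list. Of the 9 peaks at the ceiling, 5 had no H3K4me3 and 3 had only H3K4me3 below the ceiling, which left the one at the 5′ end of the gene. In the list 9.18% of ceiling peaks have no H3K4me3 and 20.1% have it only below the ceiling.

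The sizes of the H3K27ac peaks were spread widely. The narrowest measured 457 bp, the median was 1597 bp (95% interval from order statistics 1165 to 1837 bp) and the widest 23824 bp. The list median was 1782 bp. Widths of 4000 bp or more were found in 12 of 58 (20.7%, interval 11.2 to 33.4%), against 10.9% of the list. Scores under 100 were found in 19 of 58 (32.8%, interval 21.0 to 46.3%), against 17.7%. The ceiling was reached by 9 of 58 (15.5%, interval 7.35 to 27.4%), against 24.1%. The intervals are no test against the list, because the window was selected on these peaks and many of them are close neighbours.

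The ceiling peaks of the window were wide for their score. Their median width was 7876 bp, compared with 3495 bp for ceiling peaks of the whole list, and the narrowest measured 3816 bp. They held 88.7 kb, or 51.8%, of the acetylated length of the window, and the 19 peaks under 100 held 8.27%. Over the list these shares were 46.7 and 5.52%. Neighbouring H3K27ac peaks lay less than 500 bp apart in 16 of 57 cases (28.1%), against 10.5% of neighbours in the list. A weak peak beside a wide one, such as the 557 bp peak (score 51.24) that ended 21 bp before the 7847 bp peak, was counted as a peak of its own.

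**Figure D3:**
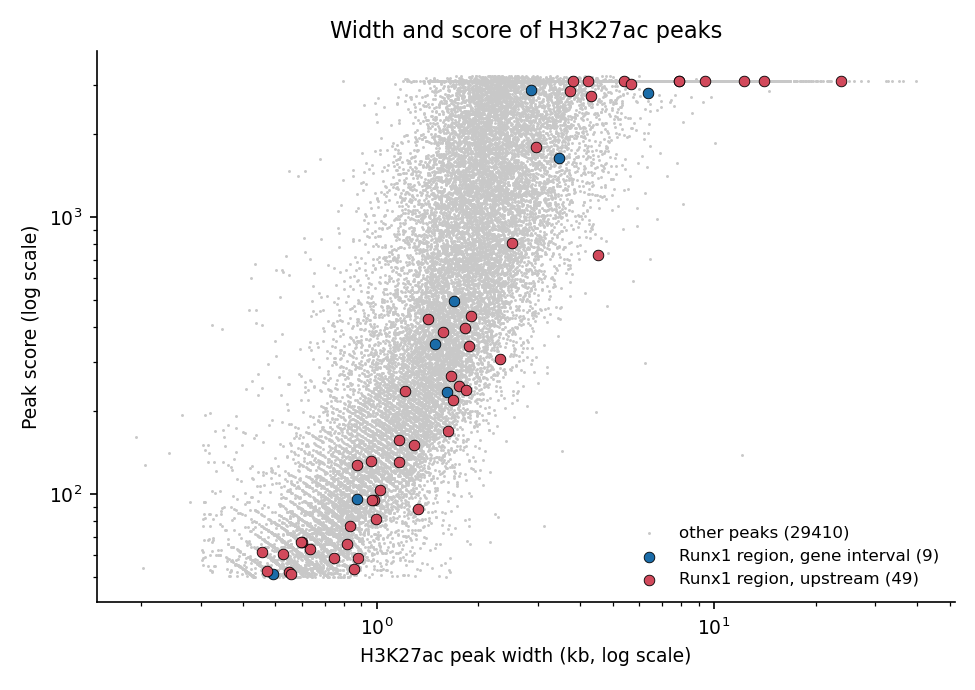
Score (vertical axis, log scale) against width in kb (horizontal axis, log scale) for each H3K27ac peak, with the 29410 peaks outside the window in grey, the 9 of the gene interval in blue and the 49 upstream in red. Points of the window run from the weak, narrow corner to the ceiling, where the 3 widest, at 12.2, 14.1 and 23.8 kb, are all upstream.

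Length of acetylation at this scale was uncommon in the genome. Chromosomes were divided into 3440 tiles as long as the window, placed so that the window is one of them. Its 171 kb under H3K27ac ranked second, after a tile on chromosome 6 (68579968 to 69329968) with 187 kb, against a median tile of 9.42 kb and a 99th percentile of 112 kb. The next tiles were on chromosome 4 (44579936 to 45329936), with 148 kb, and chromosome 12 (115080030 to 115830030), with 141 kb. By its 11.9 kb under H3K4me3 the window ranked only 1080th of 3438 tiles. Of the 4 tiles, the one on chromosome 4 held 15 H3K4me3 peaks, 9 at the ceiling. Those on chromosomes 6 and 12 held 7 and 2, with 0 and 1 at the ceiling, and the Runx1 window held 5, with 2. The window was drawn around the acetylated cluster and the other tiles were not fitted to theirs, so these ranks favour it.

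Joining H3K27ac peaks within 12.5 kb of each other, the usual first step in listing clustered enhancers, gave 11 stitched regions in the window. The dense part was 1 of them and had the largest summed length of all 16134. It differed in make-up from the 6 that followed it, on chromosomes 15, 10, 11, 7, 14 and 5, which held 12 to 21 peaks with summed lengths of 68.7 to 86.9 kb. It had more peaks, 36, over a longer span, 204 kb, and a smaller share of that span was covered: 53.5%, against 60.1 to 85.7%. The region of chromosome 15 (63428244 to 63529636) had the largest share of its span covered, 85.7%, with 14 peaks over 101 kb. Of the 7, those on chromosomes 16, 15 and 7 had no H3K4me3 peak at the ceiling.

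The first rank rested on weak peaks that bridge gaps and on the joining distance. With peaks of score 100 or more the dense part came apart into 4 stitched regions, of 33.1, 30.4, 22.7 and 13.0 kb, that ranked 58th, 79th, 202nd and 712th. With a joining distance of 5 kb its longest piece was 26.5 kb in 9 peaks (93235651 to 93272027) and ranked 63rd, just above a piece of 26.3 kb around the 23.8 kb peak that ranked 66th. The last peak, of 1285 bp (93308417 to 93309701, score 150.53), joined across 12393 bp, close to the limit. Coverage does not involve the joining distance. With scores of 100 or more 20.9% of the window was covered, against 22.8%, and the rank among tiles stayed second. The peaks left out held 8.27% of the acetylated length, so coverage could fall by no more than that share.

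**Figure D4:**
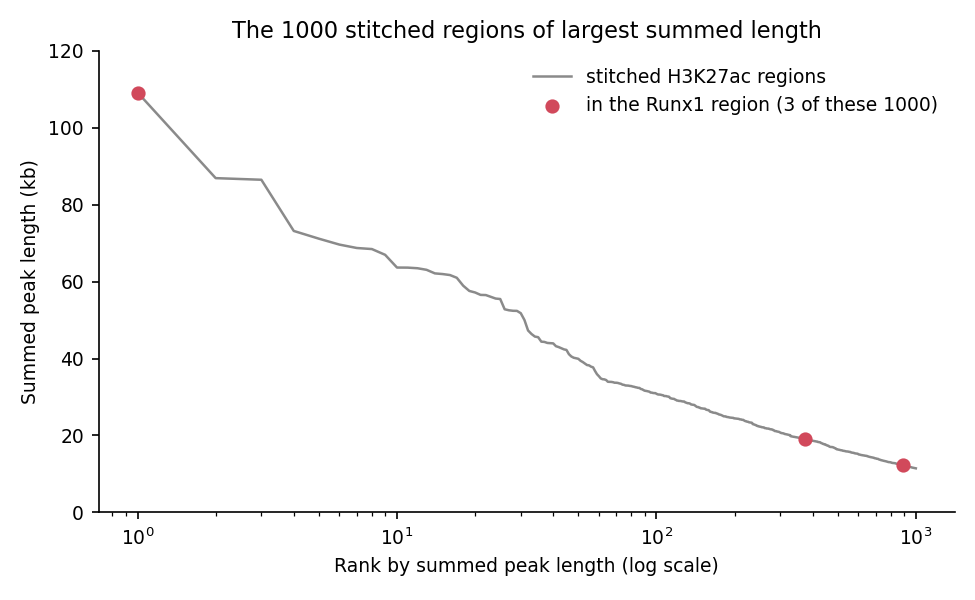
Summed H3K27ac peak length in kb (vertical axis) against rank (horizontal axis, log scale) for the 1000 stitched regions of largest summed length, as a grey line, with regions of the Runx1 window in red. The dense upstream part leads at 109 kb, and the red points at ranks 374 and 896 are the 5′ end of the gene with 19.1 kb and the group around the 9372 bp peak with 12.2 kb.

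The stitched region at the 5′ end of Runx1 (92782614 to 92829035) held 5 peaks, from the 6390 bp intragenic peak to the peak over the wider H3K4me3 peak. Its 19.1 kb placed it at rank 374. With scores of 100 or more it divided into 9.85 kb within the gene, ranked 1180th, and the 7876 bp peak alone, ranked 1719th. Of the separate upstream groups with more than 1 peak between the gene and the dense part, the one around the 9372 bp peak ranked 896th (12.2 kb in 3 peaks), and the others ranked 1321st (9.75 kb in 3), 2525th (6.33 kb in 2) and 3117th (5.46 kb in 3). By length the gene's own acetylated 5′ end was thus well below the far upstream cluster.

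Beyond the window the nearest peaks lay 113 kb or more from its edges. How usual such stretches are was not determined. Chromosome 16 held 1.14 H3K27ac and 0.609 H3K4me3 peaks per 100 kb. The last H3K27ac peak inside lay 20.3 kb from the upstream edge, and the next outside (93453990 to 93454684) was a peak of 695 bp with a score of 91.04, 124 kb beyond the edge. On the gene side the first peak inside lay 41.2 kb from the edge, and the nearest outside (92465873 to 92466616) had 744 bp and a score of 121.92, 113 kb beyond it. That outer peak lay within an H3K4me3 peak of 1378 bp with a score of 2734.23 (92465520 to 92466897). The next H3K4me3 peak on the upstream side (93603210 to 93605053) was 273 kb beyond the edge. A peak was a member when it overlapped the window, and no peak crossed an edge.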

How the data were processed

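H3K27ac, H3K4me3 and IgG immunoprecipitations were sequenced from 1 sample each, grouped by title. MACS called the peaks on mm9, per the submitters' processing notes. The deposited files are 1 peak list per mark, with a score by the authors for every peak. No header defines the score. The names of the deposited files state a p-value of 1e-5, which would be a score of 50 if the score were -10 times its log10, and the lowest deposited score is 50.01. Scores of exactly 3100 were given to 6863 H3K27ac and 9042 H3K4me3 peaks, and 243 and 75 exceed it, none of them in the window. No source used here gives the aligner, read filters, depth or use of the IgG library in calling. A deeper library gives more and wider peaks, so numbers of peaks are not comparable between marks.

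The window, its members and the measures were chosen with earlier results of these data known. Overlap meant 1 bp or more. Named by position are all H3K4me3 peaks, the H3K27ac peaks that meet them, the 10 widest H3K27ac peaks, the edges, the longest gap, the stitched regions and the next in length. Other peaks were named after their values were seen. Promoter sequences and gene order came from RefSeq (GRCm38.p6), and planned comparisons with gene starts were not made for want of mm9 positions. No test was made. Code was tested on simulated peaks. Calculations ran in Python 3.11.15 with SciPy 1.17.1, pandas 2.3.3 and NumPy 2.4.6.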

Additional observations from a re-analysis of the deposited data

How the results depend on the processing

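Of 37 alternative values for 11 results, 29 lay inside the reported value's interval or, for counts, lengths, ranks and coverage, within 1.5 times of it, and 8 did not. Some of the 29 could not differ: no peak crossed an edge, so keeping only peaks wholly inside changed no value. Stricter and looser definitions of overlap left both overlap shares unchanged. The tolerance also passes a fall from 58 to 39 H3K27ac peaks with scores of at least 100. The count of 29 is therefore no measure of stability. The sign of the one signed result was kept in all 3 of its alternatives, with coverage upstream exceeding that of the gene interval by 15.3 to 21.3 percentage points against 17.3 as reported. The window was drawn around the upstream acetylated cluster, so this sign follows from the selection and its persistence is no test. The summed length of the longest stitched region was 109 kb and became 33.1 kb with scores of at least 100 and 26.5 kb with a joining distance of 5 kb. Its rank was 1 and became 58 and 63 under these 2 choices, 2 with a joining distance of 25 kb and 5 when ranked by summed score. The rank of the window among tiles, 2 as reported, was 3 when the other tiles were shifted along the chromosomes. The median H3K27ac width of 1597 bp became 1896 bp with scores of at least 100 and 1856 bp with peaks less than 500 bp apart joined. The first rise had to follow, because every peak left out was at most 1328 bp wide. No paired analysis was possible because each mark has 1 library, and leaving out a replicate was not possible for the same reason. Depth is unknown, so a stretch without a peak is one in which none was called.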
